A study of Homo sapiens with 12 samples.

Results

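IκB proteins are ankyrin-repeat proteins that bind NF-κB transcription factors. The IκB family here means the 6 genes *NFKBIA*, *NFKBIB*, *NFKBIE*, *NFKBIZ*, *NFKBID* and *BCL3*. They were taken by symbol from the 58288 genes counted in the RNA-seq of HL-60/S4, a human promyelocytic leukemia cell line. Undifferentiated cells (promyelocytes) and cells differentiated for 4 days with ATRA (all-trans retinoic acid, at 1 µM in ethanol; granulocytes) each received TNF-α (16 ng/mL, 2 h, medium with added calcium) or the same volume of water as vehicle, which makes 4 groups of 3 libraries. All cells came from the same seed lot at passage 8, and each library came from its own flask, so the p-values measure the spread between flasks of 1 line. Granulocyte here means an ATRA-differentiated leukemia cell. Promyelocytes and granulocytes were handled in separate experiments. Undifferentiated cells were also suspended at a higher density than differentiated cells, at the same TNF-α concentration. Cell type, cell density and experiment therefore cannot be told apart, and levels were not tested between the cell types.

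In resting cells the classical members, IκBα (*NFKBIA*), IκBβ (*NFKBIB*) and IκBε (*NFKBIE*), hold NF-κB dimers in the cytoplasm. Binding of TNF-α to its receptor activates the IκB kinase (IKK) complex, which marks these proteins for ubiquitination and destruction by the proteasome, and the freed NF-κB enters the nucleus and switches on genes that include *NFKBIA* itself, which closes a negative feedback loop. The nuclear members, IκBζ (*NFKBIZ*), IκBNS (*NFKBID*) and BCL-3 (*BCL3*), act on NF-κB already bound to DNA and can raise or lower the transcription of its targets. RNA-seq measures the transcripts of these genes, not the degradation of the proteins.

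All 6 loci were located in the hg38 build used by the authors. *NFKBIA* spans 35401511 to 35404749 on chromosome 14, minus strand, with 2373 exonic bases. *NFKBIB* lies on chromosome 19 from 38899700 to 38908893, plus strand, with 2324 exonic bases. *NFKBIE* lies on chromosome 6 from 44258166 to 44265788, minus strand, with 2581 exonic bases. *NFKBIZ* was the longest member, with 5902 exonic bases on chromosome 3 from 101827991 to 101861022, plus strand. *NFKBID* (35887653 to 35902303, minus strand, 3198 exonic bases) and *BCL3* (44747705 to 44760044, plus strand, 3242 exonic bases) share chromosome 19 with *NFKBIB*. *NFKBID* shares 111 exonic bases, 3.47% of its length, with an unnamed gene of the same strand (ENSG00000280194), which had at most 45 counts in any library. *BCL3* shares 65 exonic bases with *MIR8085*, which had 0 counts. *NFKBIB* overlaps *SIRT2* over 40 exonic bases on the opposite strand, and the counting used strand.

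The κB element is the DNA sequence bound by NF-κB, and it is shown here because NF-κB feedback on IκB genes acts through such elements. RefSeq promoter windows (GRCh38.p14, 250 bases before to 50 bases after a transcription start) were found for 5 of the 6 genes, in 9 windows, and were searched on both strands for the 10-base κB consensus. It was present in 7 of the 9 windows and in at least 1 window of each of the 5 genes, *NFKBIA*, *NFKBIB*, *NFKBIZ*, *NFKBID* and *BCL3*. Among all windows, 2075 of 35116 (5.91%) held it, or 1937 of 27305 genes (7.09%). *NFKBIE* had no window in the table. The matches are printed below on the strand of the gene, 5′ to 3′, with 10 bases on each side and the match in capitals.
NFKBIA (chr14:35404811-35404840, minus strand, 81 bases before the start): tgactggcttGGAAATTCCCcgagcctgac
NFKBIB (chr19:38899931-38899960, plus strand, 28 bases before the start): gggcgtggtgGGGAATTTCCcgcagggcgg
NFKBIZ, upstream window (chr3:101827757-101827786, plus strand, 223 bases before the start): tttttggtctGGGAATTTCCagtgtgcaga
NFKBIZ, downstream window (chr3:101849265-101849294, plus strand, 239 bases before the start): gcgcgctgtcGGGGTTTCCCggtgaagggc
NFKBID, upstream of these windows (chr19:35900613-35900642, minus strand, 92 bases before the start): agcgcgacccGGGGACTCCCaggcctgtgg
NFKBID, downstream of these windows (chr19:35899922-35899951, minus strand, 198 bases before the start): gggctgagcaGGAATTCCCCttgcgcgggg
BCL3 (chr19:44748700-44748729, plus strand, 2 bases after the start): ccggctgcagGGGAAGTCCCggcgcccggc

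The printed letters of *NFKBIA*, *BCL3* and both *NFKBID* windows match the consensus on the opposite strand, as their reverse complement. The *NFKBIB* window printed above held a further match on the opposite strand, 27 bases before the start and overlapping the printed one. The downstream *NFKBIZ* match reads as a match on both strands. The 250 bases before the *NFKBIA* start (chr14:35404750-35404999, minus strand, match in capitals) are shown whole because *NFKBIA* had the largest response of the family. They read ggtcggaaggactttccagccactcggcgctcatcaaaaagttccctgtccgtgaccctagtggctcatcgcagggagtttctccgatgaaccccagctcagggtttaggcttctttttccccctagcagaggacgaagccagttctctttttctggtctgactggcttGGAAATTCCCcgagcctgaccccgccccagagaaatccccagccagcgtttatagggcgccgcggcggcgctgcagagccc. A match describes letters in a window, not binding, and counts per gene do not say which start was used in these cells.

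The libraries held 22829189 to 31895061 assigned read pairs (median 28233190). Levels are given as CPM (TMM-scaled counts on a common library total), and a floor of 3 counts stood at 0.0945 to 0.136 CPM on that scale, which covers counting error only. The labels were checked against markers: the summed level of 5 promyelocyte granule genes was 7316 to 8142 CPM in vehicle-treated promyelocytes and 2132 to 2345 CPM in vehicle-treated granulocytes, and that of 6 granulocyte genes was 147 to 155 and 3686 to 3842 CPM. Most of the first sum was *MPO*, at 6422 CPM in vehicle-treated promyelocytes, and *ELANE*, a further promyelocyte gene, was at 1.79 CPM. Of 6 monocyte genes 4 were at or under the floor in every group, with *CSF1R* at 49.7 CPM in vehicle-treated granulocytes. With TNF-α the promyelocyte sum was 6061 to 6961 CPM and the granulocyte sum 239 to 257 CPM in promyelocytes. The latter came from *CYBB* (113 CPM with vehicle and 216 CPM with TNF-α), while *ITGAM* stood at 6.40 and 6.46 CPM and *CSF3R* at 21.7 and 15.6 CPM. In granulocytes *CSF1R* was at 32.2 CPM with TNF-α. The part of these marker differences in the results below was not tested. In bulk RNA, fewer cells of a type and less RNA per cell cannot be told apart.

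TNF-α increased the transcripts of 5 of the 6 IκB genes in both cell types, namely *NFKBIA*, *NFKBIB*, *NFKBIE*, *NFKBID* and *BCL3* (edgeR quasi-likelihood test, adjusted p under 0.05). Of all genes tested, 8.15% passed the test as higher with TNF-α in promyelocytes and 24.4% in granulocytes, and 14.8% and 49.3% passed it in either direction. All 6 members passed the filter on low counts in each fit. For these 5 genes the lowest TNF-α library stood above the highest vehicle library of its cell type, which held for 13.7% of all genes tested in promyelocytes and 28.4% in granulocytes (30.9% and 55.1% for a gap in either direction). No member fell, and the *NFKBIZ* ranges overlapped. The plot of CPM by library shows the 3 values of each group.

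**Figure D1:**
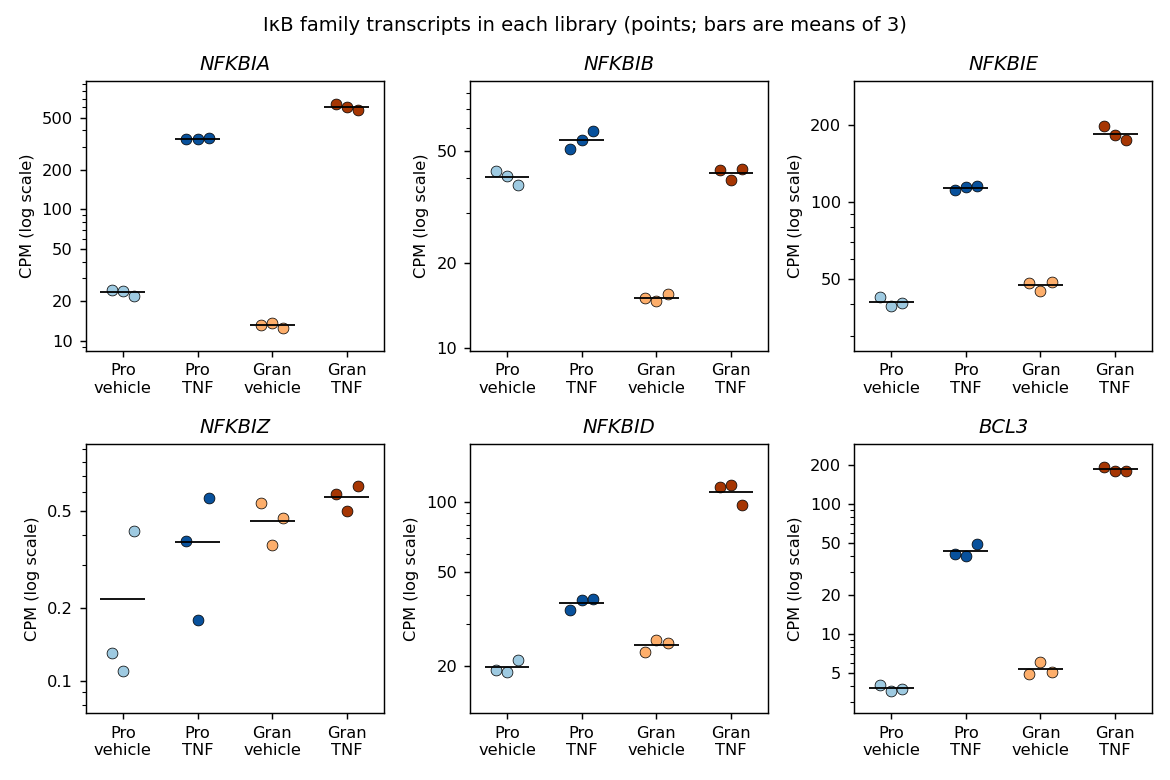
CPM of the 6 IκB genes in each of the 12 libraries (points, y axis on a log scale that differs between panels) with the mean of each group of 3 (bars). *NFKBIA* stood at 21.9 to 24.3 CPM in vehicle-treated promyelocytes and at 575 to 635 CPM in TNF-α treated granulocytes, while all *NFKBIZ* points lay under 1 CPM.

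*NFKBIA* encodes IκBα, the inhibitor that is degraded first and resynthesized under NF-κB control. In promyelocytes its level was 24.3, 23.7 and 21.9 CPM in the vehicle libraries and 344, 343 and 347 CPM in the TNF-α libraries. In granulocytes it was 13.1, 13.7 and 12.6 CPM with vehicle and 635, 599 and 575 CPM with TNF-α. The granulocyte groups thus lay outside the promyelocyte groups on both sides, lowest with vehicle and highest with TNF-α. The increase was 15.04-fold in promyelocytes (log2 fold change 3.91, standard error 0.0640, 95% interval 3.78 to 4.04, edgeR adjusted p = 1.75e-19). It was 45.4-fold in granulocytes (log2 fold change 5.51, standard error 0.0642, 95% interval 5.38 to 5.64, edgeR adjusted p = 3.11e-39). Among all genes tested, this was the increase of rank 32 of 16250 in promyelocytes and of rank 43 of 16944 in granulocytes. Ordered by level per length, *NFKBIA* moved from places 4842 to 5154 among all genes to places 210 to 242 in promyelocytes, and from 7161 to 7549 to places 126 to 133 in granulocytes.

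*NFKBIB* encodes IκBβ, which is known for slower loss and resynthesis than IκBα. Its level in promyelocytes was 42.4, 40.6 and 37.8 CPM with vehicle and 50.6, 54.3 and 58.8 CPM with TNF-α. In granulocytes it was 14.96, 14.6 and 15.5 CPM with vehicle and 42.7, 39.3 and 42.8 CPM with TNF-α. TNF-α treated granulocytes therefore overlapped vehicle-treated promyelocytes, and all groups but these were apart. The promyelocyte response was the smallest that passed the test in the family, 1.38-fold (log2 fold change 0.46, standard error 0.0682, edgeR adjusted p = 5.07e-05), and stood at rank 1260 of 16250. In granulocytes the increase was 2.74-fold (log2 fold change 1.45, standard error 0.0691, edgeR adjusted p = 6.55e-20).

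*NFKBIE* encodes IκBε, a further NF-κB-induced inhibitor. Its level was 42.5, 39.4 and 40.2 CPM in vehicle-treated and 111, 114 and 116 CPM in TNF-α treated promyelocytes. In granulocytes the libraries stood at 48.4, 44.9 and 48.6 CPM with vehicle and 198, 183 and 175 CPM with TNF-α. No pair of groups overlapped, and vehicle-treated promyelocytes were lowest. The increase was 2.84-fold in promyelocytes (log2 fold change 1.51, standard error 0.0596, edgeR adjusted p = 1.75e-13) and 3.88-fold in granulocytes (log2 fold change 1.96, standard error 0.0548, edgeR adjusted p = 3.16e-27).

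Of the nuclear members, *BCL3*, a proto-oncogene product that binds NF-κB dimers on DNA, had the largest increase. It was at 4.08, 3.68 and 3.80 CPM in vehicle-treated and 41.2, 40.1 and 49.1 CPM in TNF-α treated promyelocytes. In granulocytes it was at 4.89, 6.09 and 5.06 CPM with vehicle and 194, 179 and 181 CPM with TNF-α. All vehicle libraries stood between 3.68 and 6.09 CPM, whereas the TNF-α groups stood far apart. The increase was 11.5-fold in promyelocytes (log2 fold change 3.52, standard error 0.103, 95% interval 3.30 to 3.73, edgeR adjusted p = 1.16e-15) and 34.1-fold in granulocytes (log2 fold change 5.09, standard error 0.0726, 95% interval 4.94 to 5.24, edgeR adjusted p = 1.09e-36). *BCL3* and *NFKBIA* were the members whose increase was over 10-fold in both cell types, and the other 4 stayed under 5-fold.

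*NFKBID* encodes IκBNS, which in immune cells tunes the transcription of a part of the NF-κB targets. Its level was 19.3, 18.8 and 21.2 CPM in vehicle-treated and 34.5, 38.2 and 38.4 CPM in TNF-α treated promyelocytes, a 1.90-fold increase (log2 fold change 0.93, standard error 0.0780, edgeR adjusted p = 2.31e-08). In granulocytes it was 23.0, 25.7 and 25.1 CPM with vehicle and 115, 118 and 96.9 CPM with TNF-α, a 4.43-fold increase (log2 fold change 2.15, standard error 0.0660, edgeR adjusted p = 6.92e-26). As for *NFKBIE* and *BCL3*, the groups stood in the order vehicle-treated promyelocytes, vehicle-treated granulocytes, TNF-α treated promyelocytes and TNF-α treated granulocytes, without overlap.

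*NFKBIZ*, which encodes IκBζ, an inducible co-activator of secondary NF-κB targets in macrophages, was barely detected in any group. Its counts were 4, 3 and 12 in vehicle-treated promyelocytes, 10, 5 and 18 with TNF-α, 14, 11 and 14 in vehicle-treated granulocytes and 13, 14 and 14 with TNF-α. These counts correspond to 0.110 to 0.414, 0.179 to 0.567, 0.364 to 0.539 and 0.501 to 0.633 CPM. Neighbouring groups overlapped throughout. The log2 fold change was 0.80 in promyelocytes (95% interval -0.39 to 1.998, edgeR adjusted p = 0.406) and 0.31 in granulocytes (95% interval -0.51 to 1.13, edgeR adjusted p = 0.553). A change was thus not detectable at this depth. The promyelocyte value depended on single libraries. Without vehicle replicate 3, the log2 fold change was 1.64 (95% interval 0.19 to 3.10, edgeR adjusted p = 0.134). Without TNF-α replicate 3 it was 0.35 (95% interval -1.12 to 1.82, edgeR adjusted p = 0.795). With any promyelocyte library other than vehicle replicate 3 left out, the interval still included no change.

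Whether the family responded alike in both cell types was asked with the interaction of cell type and TNF-α in a fit of all 12 libraries. The response was larger in granulocytes for 5 of the 6 genes, against 14.1% of all genes tested, while 9.88% had a larger response in promyelocytes and 24% differed in either direction. With TMM, 2561 genes passed the test as larger in granulocytes and 1790 as larger in promyelocytes, a split that became 2128 and 2266 with DESeq2's size factors. The same 5 members passed the test in the same direction under both scalings. The difference between the log2 fold changes (granulocytes minus promyelocytes) was 1.63 for *NFKBIA* (standard error 0.0849, edgeR adjusted p = 7.34e-14) and 1.61 for *BCL3* (standard error 0.142, edgeR adjusted p = 1.86e-09). It was 1.26 for *NFKBID* (standard error 0.108, edgeR adjusted p = 1.15e-09) and 1.03 for *NFKBIB* (standard error 0.0984, edgeR adjusted p = 8.81e-09). *NFKBIE* had the smallest difference that passed the test, 0.49 (standard error 0.0817, edgeR adjusted p = 5.84e-05), and it was 0.30 (edgeR adjusted p = 0.00313) once the trend of each library with GC content was removed. For *NFKBIZ* the difference was -0.45 (95% interval -1.91 to 1.00, edgeR adjusted p = 0.700), an interval that lies on both sides of 0. The intervals of the promyelocyte and granulocyte responses can be read from the plot of fold changes.

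**Figure D2:**
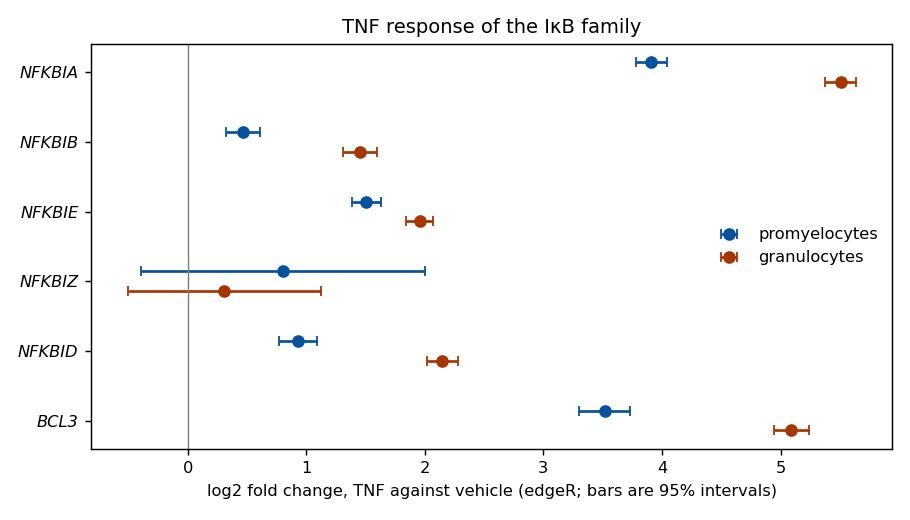
Log2 fold change of each IκB gene, TNF-α against vehicle, in promyelocytes (blue) and granulocytes (red), with 95% intervals from edgeR (bars, n = 3 libraries per group). The granulocyte point lay to the right of the promyelocyte point for 5 genes, and both *NFKBIZ* intervals crossed 0.

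The levels behind these responses differed between the cell types in both directions. In vehicle-treated cells the mean was 23.3 ± 1.22 CPM in promyelocytes and 13.1 ± 0.564 CPM in granulocytes for *NFKBIA*, and 40.3 ± 2.29 and 15.04 ± 0.452 CPM for *NFKBIB* (SD, n = 3). For *NFKBIE*, *NFKBID* and *BCL3* the granulocyte libraries lay above instead, at 47.3 ± 2.05 against 40.7 ± 1.64, 24.6 ± 1.43 against 19.8 ± 1.29 and 5.34 ± 0.649 against 3.85 ± 0.208 CPM. With TNF-α, granulocytes were above promyelocytes for *NFKBIA* (603 ± 30.1 against 345 ± 2.17 CPM), *NFKBIE* (185 ± 12.1 against 114 ± 2.23 CPM), *NFKBID* (110.1 ± 11.5 against 37.0 ± 2.19 CPM) and *BCL3* (185 ± 8.03 against 43.5 ± 4.90 CPM). *NFKBIB* stayed below, at 41.6 ± 2.0 against 54.6 ± 4.12 CPM. None of these ranges overlapped, and their directions were the same with TMM, with library totals alone and with DESeq2's size factors. Such separation was common: 74.4% of all genes did not overlap between the vehicle groups (37.3% higher and 37.1% lower in granulocytes) and 73.6% between the TNF-α groups (38.6% higher and 34.9% lower). The differences are given as descriptions, since the cell types were separate experiments.

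To compare the members with each other, levels were divided by exonic length (RPKM, on the TMM scale). In vehicle-treated promyelocytes *NFKBIB* (mean 17.3 RPKM) and *NFKBIE* (15.8 RPKM) led with overlapping ranges, ahead of *NFKBIA* (9.83 RPKM), *NFKBID* (6.18 RPKM), *BCL3* (1.19 RPKM) and *NFKBIZ* (0.0370 RPKM). In vehicle-treated granulocytes the order was *NFKBIE* (18.3 RPKM), *NFKBID* (7.69 RPKM), *NFKBIB* (6.47 RPKM), *NFKBIA* (5.53 RPKM), *BCL3* (1.65 RPKM) and *NFKBIZ* (0.0775 RPKM), with no overlap between neighbours. With TNF-α, *NFKBIA* led in both cell types, at 145 RPKM in promyelocytes and 254 RPKM in granulocytes, followed by *NFKBIE* at 44.1 and 71.8 RPKM. In promyelocytes *NFKBIB* came next (23.5 RPKM), ahead of *BCL3* (13.4 RPKM) and *NFKBID* (11.6 RPKM). In granulocytes *BCL3* (57.0 RPKM) and *NFKBID* (34.4 RPKM) stood ahead of *NFKBIB* (17.9 RPKM). *NFKBIZ* was last in both, at 0.0633 and 0.0972 RPKM. No neighbours overlapped in the TNF-α groups.

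Summed over the 6 genes, the family stood at 50.3 ± 1.71 RPKM in vehicle-treated and 238 ± 5.26 RPKM in TNF-α treated promyelocytes, a ratio of 4.73. In granulocytes the sums were 39.7 ± 0.472 and 435 ± 22.2 RPKM, a ratio of 10.95. *NFKBIA* made up 19.5% ± 0.609 of the sum with vehicle and 61.1% ± 1.02 with TNF-α in promyelocytes, and 13.9% ± 0.744 and 58.4% ± 0.0660 in granulocytes. The shares of *NFKBIB*, *NFKBIE* and *NFKBID* were lower with TNF-α although their levels increased: *NFKBIE* was 46.1% of the vehicle sum and 16.5% of the TNF-α sum in granulocytes, and *NFKBIB* 34.4% and 9.86% in promyelocytes. *BCL3* alone shared the direction of *NFKBIA*, with 2.36% and 5.62% in promyelocytes and 4.15% and 13.1% in granulocytes. The nuclear members together held 14.7% ± 1.17 and 10.5% ± 0.578 in promyelocytes, and 23.7% ± 1.53 and 21.0% ± 0.288 in granulocytes. This direction rested on *NFKBIA*. With it left out, the nuclear share was 18.3% with vehicle and 27.004% with TNF-α in promyelocytes, and 27.5% and 50.5% in granulocytes. The nuclear members contributed unequally to that increase. *BCL3* went from 1.19 to 13.4 RPKM in promyelocytes and from 1.65 to 57.0 RPKM in granulocytes. *NFKBID* went from 6.18 to 11.6 RPKM and from 7.69 to 34.4 RPKM. The groups did not overlap for the shares above, except that of *NFKBIZ* in promyelocytes. The exact two-sided permutation test gave p = 0.1 for the nuclear share in each cell type, the smallest value that 3 libraries against 3 allow.

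**Figure D3:**
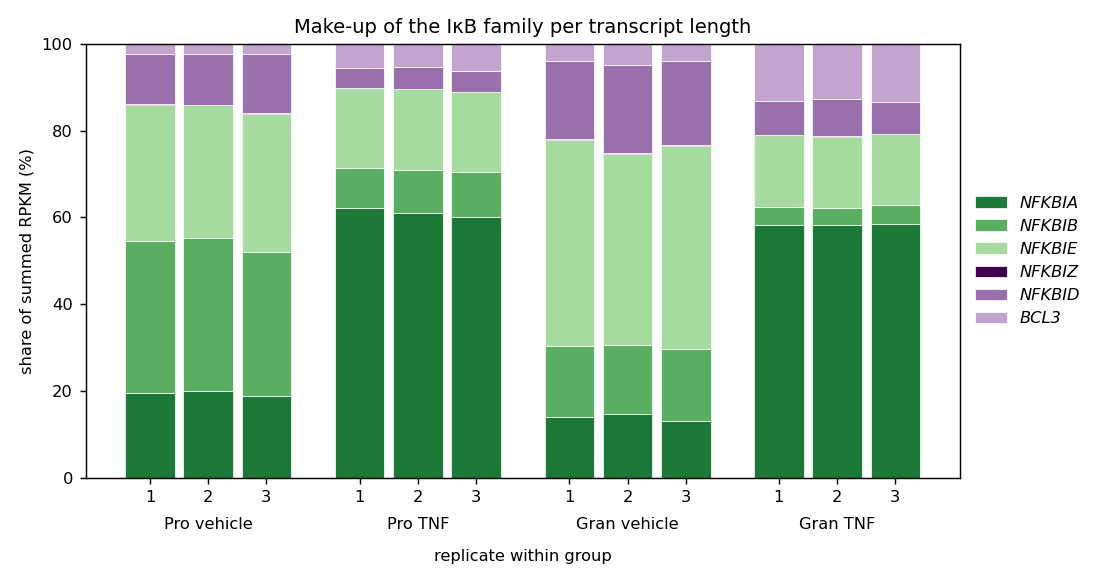
Share of each IκB gene in the summed RPKM of the family (y axis, %), 1 bar per library. *NFKBIA* (dark green) took 18.9% to 20.1% in vehicle-treated promyelocytes and about 58.4% in all TNF-α treated granulocyte libraries, and *NFKBIZ* was too small to be seen.

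Levels of the NF-κB subunits that the family binds were set against those of the family. The 5 subunit genes *NFKB1*, *NFKB2*, *REL*, *RELA* and *RELB* summed to 36.1 RPKM with vehicle and 111 RPKM with TNF-α in promyelocytes, and to 45.9 and 202 RPKM in granulocytes. The ratio of the classical IκBs to these subunits was 1.19 ± 0.0337 with vehicle and 1.93 ± 0.0918 with TNF-α in promyelocytes, and 0.662 ± 0.0335 and 1.70 ± 0.0451 in granulocytes (exact two-sided permutation p = 0.1 in each, the smallest possible). Vehicle-treated granulocytes thus had the lowest ratio. The ratio does not set inhibitors against subunits alone, since the *NFKB1* and *NFKB2* precursor proteins themselves carry IκB-like ankyrin repeats. *NFKB1* stood at 12.7 RPKM with vehicle and 32.5 RPKM with TNF-α in promyelocytes, and at 15.3 and 62.5 RPKM in granulocytes. *NFKB2* stood at 2.33 RPKM with vehicle and 32.9 RPKM with TNF-α in promyelocytes, and at 2.26 and 66.8 RPKM in granulocytes. Computed from CPM without division by length, the ratio was 0.471 and 0.883 in promyelocytes and 0.225 and 0.745 in granulocytes, so whether it stood above 1 depended on the scale and its direction did not. This direction again rested on *NFKBIA*, since the ratio of *NFKBIB* and *NFKBIE* alone was 0.917 and 0.611 in promyelocytes and 0.541 and 0.443 in granulocytes. From CPM, the latter ratio was 0.366 and 0.290 in promyelocytes but 0.186 and 0.204 in granulocytes, so its direction in granulocytes depended on the scale. Set against *RELA* alone, the subunit with the strongest activating domain, *NFKBIA* stood at 0.721 and 11.2 in promyelocytes and at 0.460 and 17.98 in granulocytes.

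**Figure D4:**
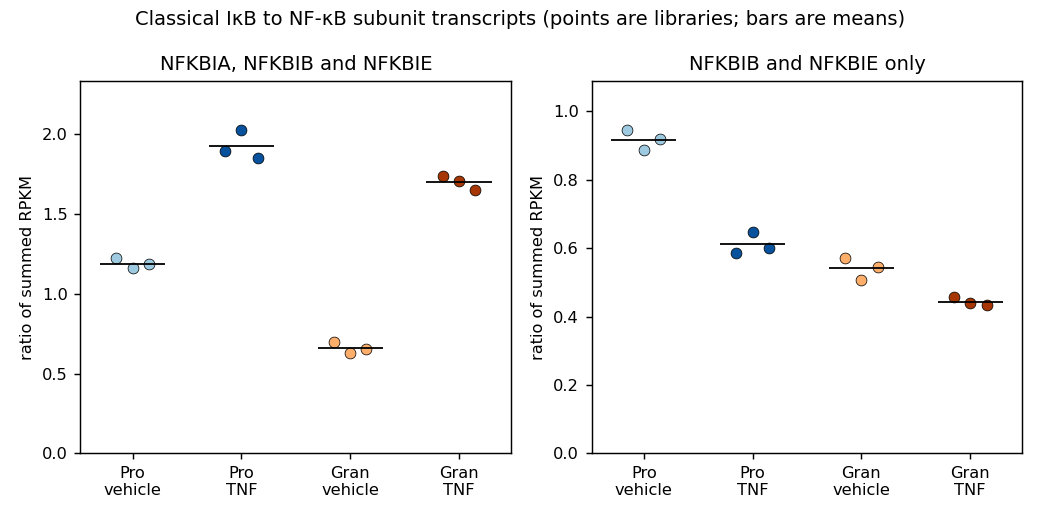
Ratio of summed RPKM of classical IκB genes to that of the 5 NF-κB subunit genes in each library (points, with group means as bars), for all classical members (left) and for *NFKBIB* and *NFKBIE* only (right). Within each cell type, the TNF-α libraries lay above the vehicle libraries with *NFKBIA* and below them without it.

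The rest of the pathway was followed with 56 genes in 7 lists, of which 50 were tested in each cell type. In promyelocytes 15 rose (8.15% of all genes tested did) and 4 fell (6.65% of all genes did). In granulocytes 30 rose (24.4% of all) and 6 fell (24.8% of all). The median log2 fold change of all genes was -0.01 in promyelocytes and -0.00 in granulocytes. The same shares apply to each list below, and 14.8% and 49.3% of all genes passed the test in either direction. The plot of pathway genes gives every value.

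All 5 NF-κB subunits rose in granulocytes and 4 of 5 in promyelocytes, with a median log2 fold change of 2.02 and 1.38. *NFKB2*, whose precursor protein carries IκB-like ankyrin repeats as that of *NFKB1* does, rose from 10.4 to 148 CPM in promyelocytes (log2 fold change 3.85). In granulocytes *NFKB2* rose from 10.2 to 300 CPM (log2 fold change 4.87). *RELB*, its preferred partner, rose with log2 fold changes of 2.96 and 4.01, and *NFKB1* with 1.38 and 2.02. *RELA* was the exception in promyelocytes, at 74.4 CPM with vehicle and 71.6 CPM with TNF-α (edgeR adjusted p = 0.812), and in granulocytes its log2 fold change was 0.22 (edgeR adjusted p = 0.00106). *REL* was the only subunit with a larger response in promyelocytes (log2 fold change 0.87 against 0.53, interaction -0.31, edgeR adjusted p = 0.00356), a difference that did not pass the test once the trend with GC content was removed (-0.13, edgeR adjusted p = 0.153).

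The IKK complex and a ubiquitin ligase lead to the destruction of the classical IκBs. Of 10 genes of the IKK arm, 3 rose and 1 fell in promyelocytes and 7 rose and 1 fell in granulocytes. Their median log2 fold change was 0.11 and 0.24. DESeq2 called 4 as increases and 0 as decreases in promyelocytes, and 6 and 1 in granulocytes. *IKBKE*, an IKK-related kinase, had the largest change (log2 fold change 1.14 and 1.83), whereas *MAP3K14*, the kinase of the non-canonical route, had -0.17 in promyelocytes (edgeR adjusted p = 0.337) and rose by 0.58 in granulocytes. *TAB2*, an adaptor of the kinase above IKK, had 0.17 (edgeR adjusted p = 0.0610) and rose by 0.32. Of the 6 ubiquitin ligase genes 0 passed the edgeR test in promyelocytes (1 had an unadjusted p under 0.05, and DESeq2 called 0). In granulocytes 3 rose and 1 fell, and DESeq2 called 2 as increases and 1 as a decrease. *BTRC* and *FBXW11* encode the paralogous β-TrCP proteins that recognise phosphorylated IκB. In granulocytes *BTRC* fell by 0.31 on the log2 scale and *FBXW11* rose by 0.24, while *CUL1*, the scaffold of the ligase, rose by 0.22.

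Of 10 tested receptors and adaptors, 2 rose and 3 fell in promyelocytes, and 4 rose and 2 fell in granulocytes. DESeq2 called 3 of them as increases in granulocytes. The TNF-α receptor gene *TNFRSF1A* fell by 0.48 and 0.41 on the log2 scale. *BIRC3*, a ubiquitin ligase recruited to the receptor, rose from 1.54 to 72.8 CPM in promyelocytes (log2 fold change 5.58) and from 0.725 to 232 CPM in granulocytes (log2 fold change 8.31). *TRAF2*, an adaptor, had 0.03 in promyelocytes (edgeR adjusted p = 0.835) and rose by 0.85 in granulocytes.

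Among 8 tested genes of ubiquitin-editing feedback, the other brake on this pathway, 4 rose in promyelocytes, and 5 rose and 1 fell in granulocytes. *TNFAIP3*, which encodes A20, rose from 35.4 to 431 CPM (log2 fold change 3.63) and from 27.6 to 945 CPM (log2 fold change 5.08). Its binding partner *TNIP1* rose with log2 fold changes of 0.74 and 2.36. *CYLD*, a deubiquitinase, had the opposite difference between the cell types, 1.60 in promyelocytes and 0.89 in granulocytes (interaction -0.67).

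Of 9 further genes linked to IκBs, 1 rose in promyelocytes, and 4 rose and 1 fell in granulocytes. The list is wider than its label in the plot (IκB-binding or -modifying), since it holds *ZC3H12A* and *PDLIM2*. *ZC3H12A*, an RNase whose known targets include the *NFKBIZ* transcript, rose from 14.03 to 54.1 CPM (log2 fold change 1.97) and from 16.2 to 105 CPM (log2 fold change 2.68). *CSNK2A2*, a kinase subunit, had -0.01 (edgeR adjusted p = 0.926) and rose by 0.34, and *PDLIM2*, a nuclear ligase for RELA, had -0.17 (edgeR adjusted p = 0.128) and fell by 0.31.

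Of 6 genes known to need IκBζ in macrophages, 2 were tested. *IL12B*, a subunit of interleukin-12, rose from 2 to 6 counts per library to 275 to 306 in promyelocytes, and from 7 to 10 counts to 1680 to 2552 in granulocytes. *CEBPD*, a transcription factor, was at 8.34 and 6.38 CPM in promyelocytes (edgeR adjusted p = 0.0521) and at 25.6 and 29.1 CPM in granulocytes (log2 fold change 0.17, edgeR adjusted p = 0.0320). The granulocyte value did not pass the test with DESeq2 (adjusted p = 0.0955) or with the trend with GC content removed (-0.03, edgeR adjusted p = 0.731). *IL6* had 0 to 8 counts per library, *CSF3* 0 to 1, and *LCN2* and *CSF2* 0 in every library, beside the low counts of *NFKBIZ* itself.

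**Figure D5:**
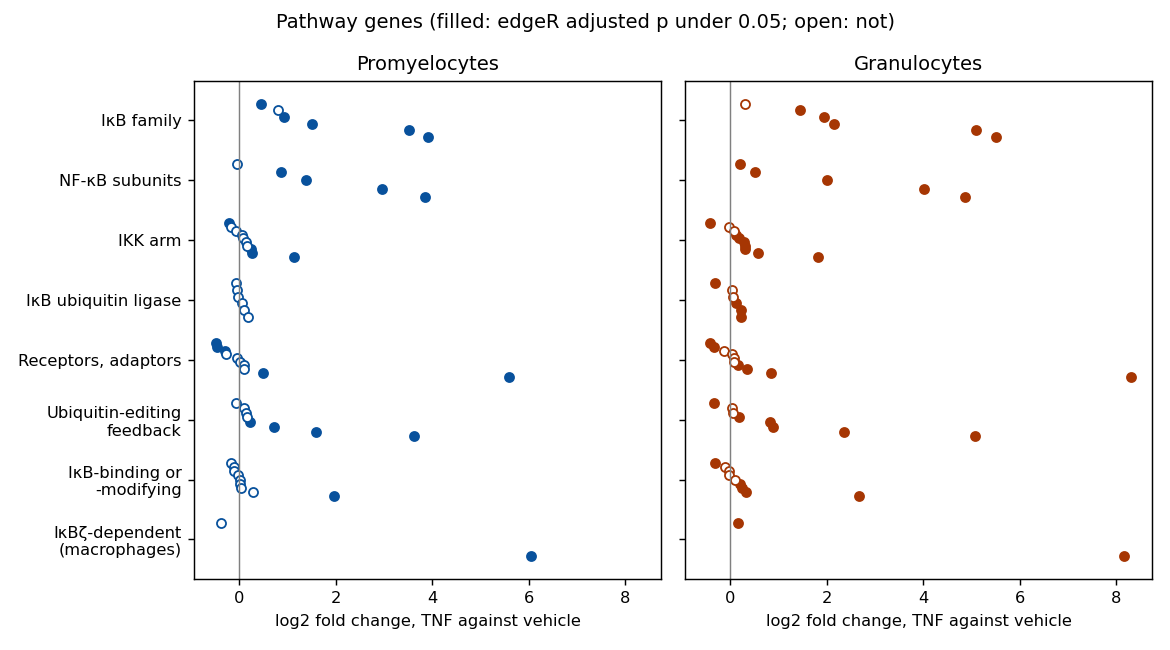
Log2 fold change (x axis, the same scale in both panels) of each IκB gene and of each pathway gene tested, TNF-α against vehicle, by list. Filled points passed the edgeR test at an adjusted p under 0.05, which 15 pathway genes did as increases in promyelocytes and 30 in granulocytes.

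The κB consensus was also looked up in these lists. It was present in a RefSeq promoter window of 3 of 4 subunit genes with a window (*NFKB1*, *NFKB2* and *REL*). Of 9 feedback genes 4 held it (*CYLD*, *TNFAIP3*, *TNIP1* and *TNIP3*, the last without counts in any library). It was present in 1 of 9 genes of the IKK arm (*TAB2*) and 1 of 9 receptors and adaptors (*BIRC3*). The list of further IκB-linked genes had it in 1 of 8 (*CSNK2A1*), and the ubiquitin ligase genes in 0 of 5. Of the genes that need IκBζ, 2 of 4 with a window held it, *IL6* and *LCN2*, which had few or no counts here, and *IL12B* was not among them. Over all genes the share was 7.09%.

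The genes most like each member were sought by Pearson's r of log2(CPM + 0.5) over the 12 libraries, among 12449 genes whose log2 CPM averaged 1 or more. The libraries form 4 groups, so an r describes a shared pattern over those groups. For every member except *NFKBIZ*, many further genes also had a high r, so the genes named are not the only close matches. *NFKBIA* was most like *TNFSF10* (r = 0.998), *RELB* (0.998) and *BIRC3* (0.996). *BCL3* was most like *EBI3* (0.998), *NFKB1* (0.996) and *IL12B* (0.996), *NFKBIE* most like *STX11* (0.999), *VCAM1* (0.997) and *SIX5* (0.996), and *NFKBID* most like *CCL4L2* (0.996), *ARHGAP31* (0.996) and *RASSF4* (0.993). *CCL4L2* has a near-identical copy, *CCL4*, and its counts are uncertain. *NFKBIB* was most like *CXXC5* (0.995), *CDC42EP3* (0.993) and *MTHFD2* (0.993). For *NFKBIZ* no gene reached 0.9, and at its few counts the nearest genes were not read.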

How the data were processed

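Ribosomal RNA was depleted and total RNA sequenced by the authors, who aligned the reads to hg38 with STAR 2.5.3a and counted read pairs per gene with featureCounts 1.5.2 (GENCODE 27, reverse strand, primary alignments). FastQC 0.11.4 and DESeq2 1.16.1 are further tools in the submitters' processing notes. The deposited values are raw counts without normalization. The deposited table also gives the exonic length of each gene (another unit, in bases), used for RPKM. Symbols came from GENCODE 44 for 57532 of 58288 identifiers, and 756 had none. No 2 libraries agreed within sampling noise.

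Counts of the 6 libraries of each cell type were tested with edgeR 4.0.16 under R 4.3.3 (TMM normalization, filterByExpr with a minimum count of 10 and a minimum total of 15, quasi-likelihood test, prior count 0.125, Benjamini-Hochberg adjustment over all genes tested, threshold 0.05). Responses were compared by the cell type and TNF-α interaction over all 12 libraries, whose TMM factors differ slightly from those of the separate fits. Standard errors and 95% intervals came from the F statistic. Shares and ratios were compared by exact two-sided permutation, which cannot give a p below 0.1 with 3 libraries against 3. The 95% intervals include the spread between flasks, whose number limits precision, and floors cover counting error only.

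The members and gene lists were chosen with earlier results of these data known. Named are all members, up to 3 genes per list with the smallest p in either cell type, list genes a count turns on, and the 3 genes most like each member. Alternatives were DESeq2's size factors, no filter, DESeq2 1.42.0, the replicate number as a block, trends with gene length and GC content removed, all 12 libraries in 1 fit, a threshold of 0.01 and each library left out in turn. For the shares and ratios they were no division by length and leaving out *NFKBIA*, and, chosen after seeing the data, both at once. Simulated promyelocyte counts of 15960 genes gave back 78 of 100 genes changed by 1 on the log2 scale and 97 of 100 changed by 2, with 13 false among 188 calls. For granulocytes, with simulated counts of 16652 genes, 80 and 99 of 100 were given back, with 13 false among 192 calls. For the interaction, with simulated counts of 17608 genes, 66 and 86 of 100 were given back, with 12 false among 164 calls. The simulations started from the same mean in all groups and changed far fewer genes than passed the test in the data, in both directions. Changes smaller than 1 on the log2 scale were not simulated. Promoter windows came from RefSeq (GRCh38.p14). The paper's RT-qPCR and public differentiation data were not analysed here.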

Additional observations from a re-analysis of the deposited data

Results flagged for a closer look

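The log2 response to TNF-α differed between granulocytes and promyelocytes by the edgeR interaction test for 5 of the 6 IκB genes, in each case with the larger response in granulocytes. The difference was 1.63 for *NFKBIA*, 1.61 for *BCL3*, 1.26 for *NFKBID*, 1.03 for *NFKBIB* and 0.49 for *NFKBIE*, and the share of all genes with a larger response in granulocytes was 14.1%. The cell types were separate experiments at different cell densities. A part of the experiment or density in these differences cannot be told apart from that of the cell type.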

How the results depend on the processing

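For the single IκB genes, 281 of 281 alternative values with an adjusted p kept the direction and the side of the threshold, and DESeq2 gave none for *NFKBIZ* in promyelocytes. The *NFKBIE* interaction ranged from 0.30 to 0.50 on the log2 scale over the settings with all libraries (largest adjusted p 0.00313), and *NFKBIZ* in promyelocytes from 0.35 to 1.64 with a library left out, without passing the test. The value 1.64 came without vehicle replicate 3, which held 12 of its counts. Over all genes, calls in promyelocytes numbered 2405, and 1438 at a threshold of 0.01, and 1598 to 2475 with a library left out, lowest without vehicle replicate 2. The interaction had 4351 calls, and 2843 at 0.01, and 3605 to 4573 with a library left out; granulocytes had 8345, and 7373 to 8010. Same-numbered libraries did not deviate together (r of residuals -0.15 to -0.04 in promyelocytes, -0.07 to -0.01 in granulocytes), and in the fits with a replicate block the calls were 1833, 7722 and 3349 (promyelocytes, granulocytes, interaction), with 5 members called in each. The nuclear share with TNF-α minus vehicle was -4.22 percentage points in promyelocytes and -2.66 in granulocytes, and reversed to 8.71 and 23.0 without *NFKBIA*, and to 9.65 and 23.8 when CPM was also not divided by length. The ratio of classical IκBs to subunits differed by 0.736 and 1.04 (TNF-α minus vehicle), by 0.412 and 0.520 from CPM without length, by -0.306 and -0.0983 without *NFKBIA*, and by -0.0760 and 0.0176 with both changes. Leaving out *NFKBIA* removes the member with the largest increase and keeps *BCL3*, the nuclear member with the largest increase. The cause of the changes with length was not tested.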
